A study of Macaca mulatta with 24 samples.

Results

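ADRA2A encodes the alpha-2A adrenergic receptor, and its mRNA was followed here in the ileum of rhesus macaques after total body irradiation (TBI). The gene was chosen by its measured values in these arrays: its mean signal lay above that of unirradiated ileum in all 6 irradiated groups, from day 4 to day 12 and at both doses. Its higher level after TBI is therefore a description with no test, and the tests below concern the difference between doses, the difference between days and the other adrenergic receptors. The member was found by its symbol in the deposited normalized table, which names 1 probe ADRA2A among 43603 probes that are not controls, 23674 of them with a gene symbol. Ileum came from 24 young-adult male animals, with 1 array for each and no pooling. 4 animals were sham-irradiated, and 20 received a single uniform dose of cobalt-60 gamma radiation. Each of the doses 6.7 and 7.4 Gy is represented by 4 ilea of day 4, 4 of day 7 and 2 of day 12. The unirradiated ilea carry a day 4 label, and all 6 irradiated groups were set against the same 4 of them. RNA was taken from pieces of whole gut wall that hold epithelium, immune cells, muscle, vessels and enteric nerves together. In such bulk samples fewer cells of a type and less RNA per cell cannot be told apart. The sample labels of the latest groups disagree on the day, and day 12 was used because titles, day field and methods all give it.

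Adrenergic receptors respond to noradrenaline, which sympathetic nerves release in the gut wall, and to circulating adrenaline. Alpha-1 receptors couple to Gq and raise intracellular calcium, beta receptors couple to Gs and raise cyclic AMP, and alpha-2 receptors couple to Gi and Go, which inhibit adenylyl cyclase, open inward-rectifier potassium channels and close calcium channels. On sympathetic and enteric nerve endings the alpha-2A receptor acts as a brake on transmitter release, and in the intestine alpha-2 receptors are known for slowing motility and for favouring absorption over secretion by the epithelium. Some enteroendocrine cells also carry it.

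ADRA2A has the gene ID 695684 in the RefSeq annotation of the macaque. The array was designed on another assembly than that annotation, so no coordinates are given, and the place of the probe within the gene was not analysed here. The probe, A_01_P002991, has 1 spot on an array, so that no other probe of the gene could be set beside it. It was dim. Its background-subtracted intensity lay between 6.69 and 60.8 units, while the 75th percentile of all probes lay between 837 and 1330 units on the same arrays. The spot itself read 37 to 92 units before subtraction, over a local background of 11 to 26.5 units. The scanner software rated it well above background on 17 of 24 arrays, 16 of the 20 irradiated and 1 of the 4 unirradiated. It entered the fit through the groups in which every array was above background, namely 7.4 Gy on day 7 and both doses on day 12, and a probe let in through its high groups had to be lower elsewhere.

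A few properties of the arrays touch these values. The share of probes well above background was between 72.7% and 88.1%. Unirradiated replicate 1 stood apart from the other controls in the makeup of its tissue. The summed signal of 3 smooth muscle markers, in units of the 75th percentile of the array, was 88.7 in it against 427 to 474 in the other controls, and that of 5 enteric neuron markers was 0.518 against 1.80 to 2.80. The same control had the highest ADRA2A signal of the 4, so the comparisons with unirradiated ileum are given with and without it. The slides also matter: the 24 arrays lay on 6 slides of 4 positions, all 4 controls were in position 1, and no control was on slides 5 and 6.

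In unirradiated ileum the ADRA2A intensity was 18.4, 7.76, 6.69 and 9.84 units on the 4 arrays, with scanner errors of 2.81 to 3.35 units for each spot. Only the first of these was well above background. On the log2 scale, after subtraction of the 75th percentile of each array, they read -5.91, -7.26, -7.20 and -6.92, a mean of -6.82 ± 0.63 (SD, n = 4). Replicate 1 exceeded the mean of the other controls by 1.22 on that scale.

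On day 4 after 6.7 Gy the intensity was 37.1, 60.8, 37.3 and 14.8 units, and the log2 signal averaged -5.17 ± 0.88 (SD, n = 4). 3 of these animals lay above every control, and replicate 4 lay below control replicate 1. The scanner rated 2 of the 4 arrays above background, and the spot of 37.1 units, not rated so, carried an error of 8.41 units. On day 4 after 7.4 Gy the intensity was 14.0, 35.7, 33.6 and 18.4 units, and the log2 signal averaged -5.63 ± 0.56 (SD, n = 4), with 3 arrays above background. Replicates 1 and 4 of this group fell within the range of the controls and the other two lay above it. Day 4 was thus the time at which irradiated and unirradiated arrays overlapped.

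On day 7 the 6.7 Gy animals had 39.6, 32.1, 16.7 and 53.7 units, a mean log2 signal of -4.98 ± 0.63 (SD, n = 4), with 3 arrays above background. The 7.4 Gy animals had 32.4, 28.8, 26.5 and 21.1 units, a mean log2 signal of -5.19 ± 0.43 (SD, n = 4), with all 4 arrays above background. All 8 arrays of day 7 lay above every control, the lowest of them (6.7 Gy replicate 3, -5.86) only just above control replicate 1. On day 12 the intensity was 26.9 and 57.0 units after 6.7 Gy and 46.8 and 48.5 units after 7.4 Gy, with mean log2 signals of -4.59 ± 0.60 and -4.50 ± 0.04 (SD, n = 2 each). All 4 arrays of day 12 were above background and above every control. In all, 17 of 20 irradiated arrays had more ADRA2A signal than the highest control.

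**Figure D1:**
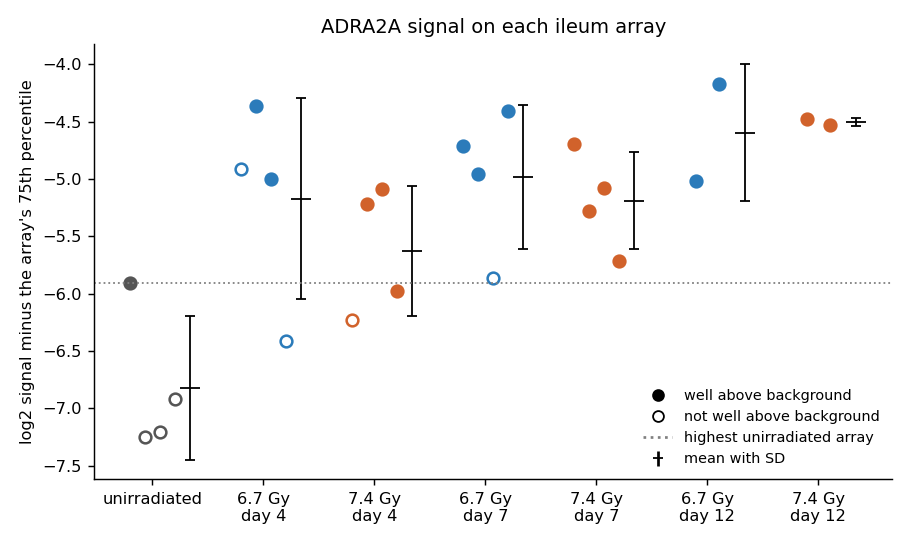
ADRA2A signal on each of the 24 arrays (y axis, log2 intensity minus the 75th percentile of the array) by group, with filled points for arrays well above background, open points for the others, the mean and SD to the right of each group, and a dotted line at the highest unirradiated array. Of 20 irradiated arrays 17 lie above the dotted line, and the 3 below it are all from day 4.

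Set against the mean of the 4 controls, ADRA2A was 1.65 higher on the log2 scale on day 4 after 6.7 Gy (SE 0.41, 3.14-fold) and 1.20 higher after 7.4 Gy (SE 0.41, 2.29-fold). On day 7 the differences were 1.84 (SE 0.41, 3.58-fold) and 1.63 (SE 0.41, 3.10-fold). On day 12, with 2 animals a group, they were 2.23 (SE 0.50, 4.69-fold) and 2.32 (SE 0.50, 4.99-fold). The day 4 means are the lowest of each dose and the day 12 means the highest. These folds rest on a control signal near the limit of the scanner. Without control replicate 1 the differences from control were 1.95 and 1.5 on day 4, 2.14 and 1.94 on day 7, and 2.53 and 2.62 on day 12, in the same order of doses.

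By the rule for calls (adjusted p under 0.05 in the limma fit and a fold change of at least 2), ADRA2A was called in 1 of these 6 comparisons, 6.7 Gy on day 4. Of all tested probes, 0.978% were called there. The share called was 2.33% on day 4 after 7.4 Gy, 0.235% and 0.568% on day 7 after 6.7 and 7.4 Gy, and 0.108% and 0.0443% on day 12. Nothing is read from this count, since the gene was chosen by these comparisons, and the number of comparisons in which it was called ranged from 0 to 6 when single arrays were left out. Every irradiated array lay above every control in 4 of the 6 comparisons, those of day 7 and day 12. The same held for 4.47% and 3.72% of tested probes on day 7 (6.7 and 7.4 Gy), for 15.3% and 8.43% on day 12, and for 4.1% and 7.84% on day 4, where ADRA2A was not among them.

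A change of at least 2-fold above control in all 6 comparisons was found for 20 of 36108 tested probes, which carry 14 distinct symbols. By the smallest of its 6 changes, ADRA2A was number 12 in order. At the lower edge of that set were GREM1, a secreted BMP antagonist, with a smallest change of 1.01, and LOC694910 with 1.02. Just outside it were CYP1D1 with 0.98 and CNDP1, a dipeptidase, with 0.96. These values describe how the gene came to be chosen and support nothing further.

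The comparison within slides holds the slide constant. On the 4 slides that carried a control, ADRA2A was higher than that control on 12 of 12 irradiated arrays, by 0.83 to 2.75 on the log2 scale with a median of 1.44. On slide 1, which carries control replicate 1, the 3 irradiated arrays exceeded it by 0.83 to 1.20. On slide 4 the excess over control replicate 4 was 1.70 to 2.75. The 6.7 Gy arrays of day 4 that shared a slide with a control (replicates 3 and 4) exceeded it by 0.87 on average. With the slide as a block in the fit of all arrays, the differences from control became 1.32 and 0.94 on day 4, 1.84 and 1.30 on day 7, and 2.31 and 1.73 on day 12, for 6.7 and 7.4 Gy in turn.

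Array position is less well separated from the groups. 2 arrays of 6.7 Gy on day 4 shared position 1 with the controls, and they exceeded the control mean by 1.91 and 2.46. The other two arrays of that group, in position 2, exceeded it by 1.11 on average. With position as a covariate the day 4 differences were 2.19 for 6.7 Gy and 2.27 for 7.4 Gy, the second against 1.20 without it. No array of day 7 or day 12 shared a position with a control or with a day 4 array, so for those days group and position cannot be told apart. Over the 24 arrays the Pearson correlation of the ADRA2A signal with the 75th percentile of the array was -0.18, and that with the share of probes above background was -0.04, both given as descriptions.

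**Figure D2:**
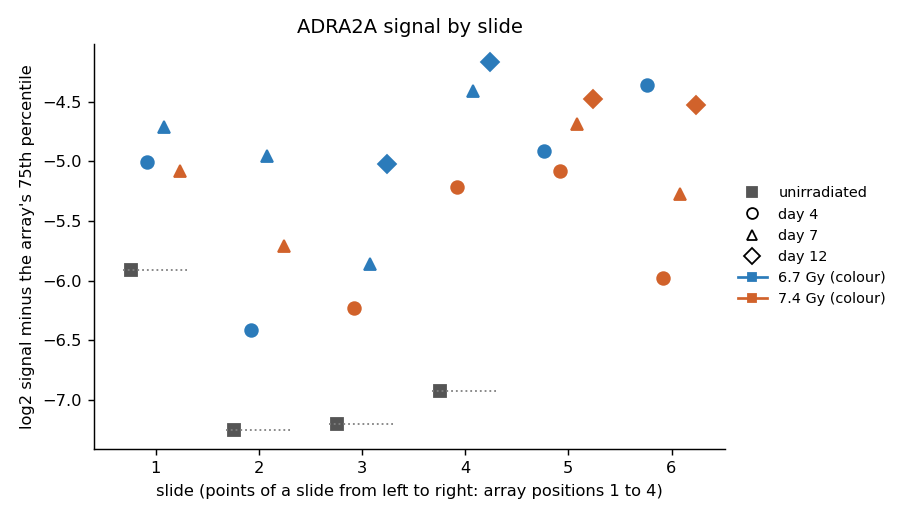
ADRA2A signal (y axis, log2 intensity minus the 75th percentile of the array) on each of the 6 slides (x axis), with the arrays of a slide drawn from left to right in positions 1 to 4, squares for unirradiated ileum, circles, triangles and diamonds for days 4, 7 and 12, and colour for the dose. On slides 1 to 4 all 12 irradiated arrays lie above the dotted line of their own control, and slides 5 and 6 have no control.

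In ascending order of the mean, ADRA2A stood at -6.82 in unirradiated ileum, -5.63 after 7.4 Gy on day 4, -5.19 after 7.4 Gy on day 7, -5.17 after 6.7 Gy on day 4, -4.98 after 6.7 Gy on day 7, -4.59 after 6.7 Gy on day 12 and -4.50 after 7.4 Gy on day 12. The steps between neighbours among the irradiated groups were 0.02 to 0.44, all under the residual SD of the fit (0.62), and the ranges of the arrays overlapped at every step. The step from the controls to the lowest irradiated group was 1.20, a value that belongs to the choice of the gene, and the ranges overlapped there as well.

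Whether the dose mattered was asked on each day. The 7.4 Gy animals had 0.46 less ADRA2A signal than the 6.7 Gy animals on day 4 on the log2 scale, with a difference of -0.46 (95% interval -1.31 to 0.40, limma adjusted p = 0.888). On day 7 the difference was -0.21 (-1.06 to 0.65, limma adjusted p = 0.992), and on day 12 it was 0.09 (-1.12 to 1.30, limma adjusted p = 0.988). None of the 3 passed the test, nor did any have an unadjusted p under 0.05. The intervals reach beyond a 2-fold lower level at 7.4 Gy on all 3 days and beyond a 2-fold higher one on day 12, so they do not show equal levels at both doses. Of all tested probes, 0% were called between doses on day 4, 0% on day 7 and 0.00277% on day 12.

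Between days the point estimates were all above 0. The probe entered the fit through 7.4 Gy on day 7 and both doses on day 12. Its choice also asked for a rise lasting to day 12. Both could tilt the later minus earlier differences upward, so these differences give no independent support for a later rise. At 6.7 Gy, ADRA2A differed by 0.19 between day 7 and day 4 (95% interval -0.67 to 1.05, limma adjusted p = 0.827), by 0.58 between day 12 and day 4 (-0.47 to 1.63, limma adjusted p = 0.472) and by 0.39 between day 12 and day 7 (-0.66 to 1.44, limma adjusted p = 0.807). At 7.4 Gy the corresponding differences were 0.44 (-0.42 to 1.29, limma adjusted p = 0.599), 1.12 (0.08 to 2.17, limma adjusted p = 0.216) and 0.69 (-0.36 to 1.73, limma adjusted p = 0.776). The widest gap was therefore between day 12 and day 4 at 7.4 Gy. Both day 12 arrays lay above all 4 arrays of day 4 there, as they did for 16.6% of tested probes. Its unadjusted p was 0.037, and it did not pass after adjustment over all tested probes. The share of tested probes called between days at 6.7 Gy was 0.354% for day 7 against day 4, 2.59% for day 12 against day 4 and 0.036% for day 12 against day 7. At 7.4 Gy it was 0.942%, 1.8% and 0.00554% in the same order. Day 12 rests on 2 animals a group, and different animals were taken on each day.

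**Figure D3:**
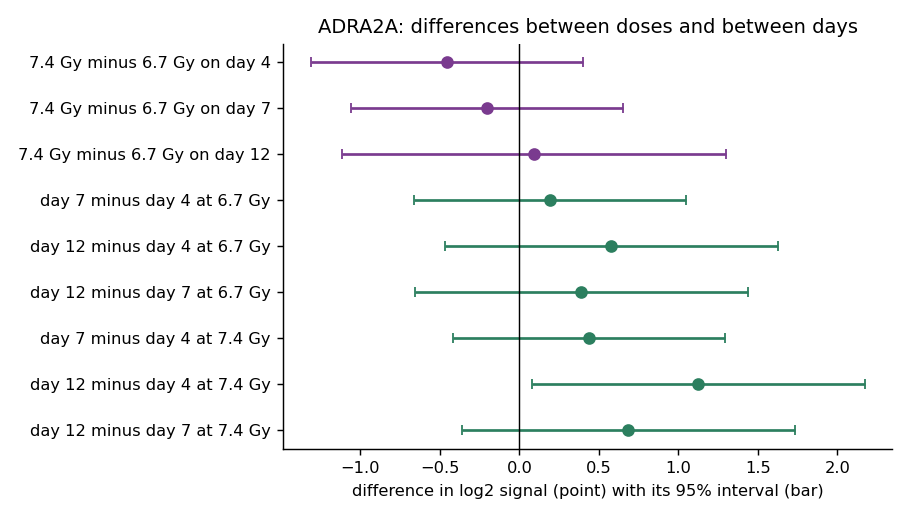
Difference in ADRA2A log2 signal (x axis) for the 3 comparisons between doses and the 6 between days, each as a point with its 95% interval from the fit over all 24 arrays. The interval of day 12 minus day 4 at 7.4 Gy (0.08 to 2.17) leaves out 0 before adjustment, and the other intervals include it.

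The other adrenergic receptors were taken by symbol. 10 probes of 6 receptor genes were found, of which 9 were bright enough to be tested. Probes named ADRA2C or ADRB1 were not analysed here. Over the 6 comparisons with the controls a single value of these 9 probes was called, on day 4 after 6.7 Gy, where 0.978% of all tested probes were called. Their median change lay between -0.13 and 0.09, beside -0.10 to 0.06 over all tested probes. A probe's brightness depends on its sequence, so levels of different receptors are not compared.

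Among the alpha-1 receptors, which contract smooth muscle, the brighter ADRA1A probe lay between 1001 and 1854 units on all 24 arrays and changed by -0.01 to 0.23 from control. The dimmer ADRA1A probe changed by -0.39 to -0.12. The brighter ADRA1D probe changed by -0.34 to -0.02 and the dimmer by -0.27 to 0.18. None of these values was called. The ADRA1B probe was well above background on 5 of 24 arrays and was not tested.

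ADRA2B, the other alpha-2 receptor with a probe, is also coupled to Gi and is known from vascular smooth muscle. Its intensity was 25.5 to 43.1 units in the controls and 19.1 to 56.7 units over all arrays. It changed by -0.13 to 0.52 from control, with the highest value on day 12 after 6.7 Gy (SE 0.35, limma adjusted p = 0.696). 2 of 20 irradiated arrays lay above every control and 4 below. The 2 alpha-2 receptors were not tested against each other.

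Of the beta receptors, ADRB3, the beta-3 receptor known for relaxing gut and bladder smooth muscle and for lipolysis in fat, had 2 probes, both well above background on all arrays. Its dimmer probe lay at 25.4 to 42.7 units in the controls and at 54.2 to 95.6 units on day 4 after 6.7 Gy. It rose by 1.0 (SE 0.25, limma adjusted p = 0.0401). Every array of that group lay above every control, as was so for 4.1% of tested probes. The same probe differed by 0.96 on day 4 after 7.4 Gy (adjusted p = 0.0291, just under 2-fold and so not called), by 0.36 and 0.51 on day 7, and by 0.37 and 0.96 on day 12. Its brighter probe differed by 0.33 on day 4 after 6.7 Gy and by 0.05 to 0.41 over the 6 comparisons, none of it called, so the 2 probes disagree in size. Without control replicate 1 the dimmer probe differed by 0.84 on day 4 after 6.7 Gy (limma adjusted p = 0.111), and the call was lost, as it was with slide as a block (0.96, adjusted p = 0.104) or array position as a covariate (0.93, adjusted p = 0.187). The dimmer probe lay above every control on 17 of 20 irradiated arrays, a count not set beside its share over all tested probes.

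The receptor kinases phosphorylate agonist-occupied receptors and so start their desensitization. The brighter ADRBK1 probe (GRK2) differed from control by -0.33 to -0.05, and the dimmer by -0.33 to 0.22. ADRBK2 (GRK3) differed by -0.95 to 0.47, and none of these values was called. On the other hand, ADRBK2 fell by 1.42 between day 4 and day 12 at 7.4 Gy (SE 0.30, limma adjusted p = 0.0151), from 46.5 to 80.8 units on the 4 arrays of day 4 to 17.4 and 25.9 units on day 12. Both day 12 arrays lay below all 4 arrays of day 4, as they did for 15.6% of tested probes. The call was lost without day 12 replicate 1 (-1.18, limma adjusted p = 0.199) or replicate 2 (-1.66, limma adjusted p = 0.0533), and the difference was -0.51 with normexp background correction (limma adjusted p = 0.0814). ADRA2A differed by 1.12 the other way between the same groups without passing the test.

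**Figure D4:**
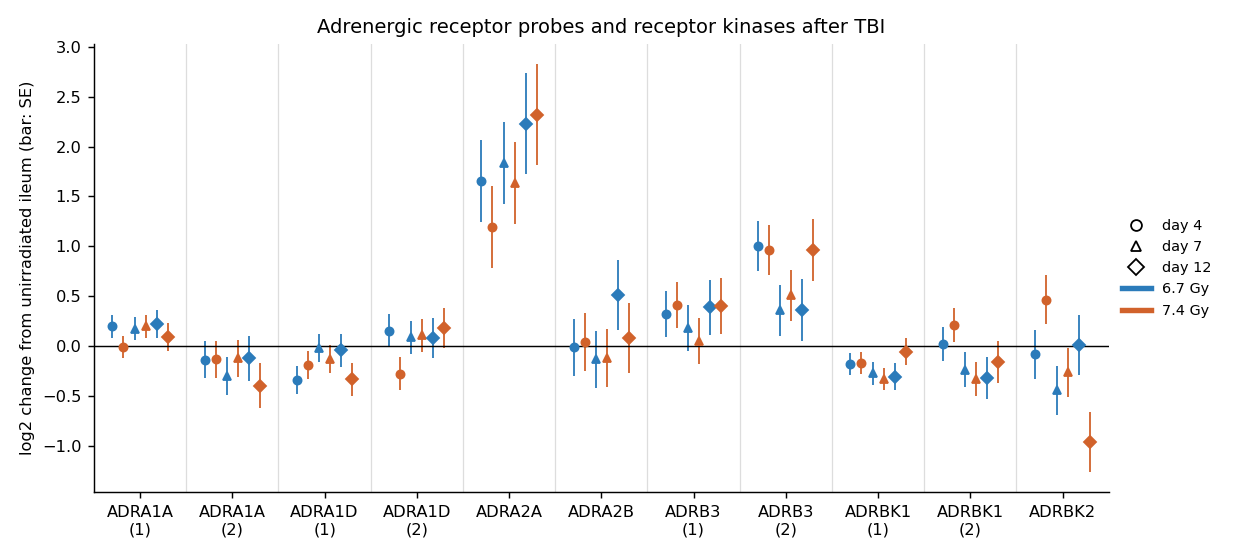
Change in log2 signal from unirradiated ileum (y axis, with SE bars) for ADRA2A, 7 other tested receptor probes and the 3 receptor kinase probes, in 6 irradiated groups marked by day (shape) and dose (colour), with (1) for the brighter and (2) for the dimmer probe of a gene. ADRA2A lies between 1.20 and 2.32 and the dimmer ADRB3 probe between 0.36 and 1.0.

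Beside the adrenergic receptors, 72 genes in 7 lists were tested. The lists cover catecholamine handling, signalling downstream of the receptor, and other amine and Gi-coupled receptors of the gut, with the peptide hormone PYY. 3 calls were made against the controls, all of them on day 4 after 7.4 Gy, where 2.33% of tested probes were called. The first list covers synthesis, transport and breakdown of catecholamines, with 11 of 12 genes tested. Its median change was -0.35 and -0.12 on day 4, 0.13 and -0.06 on day 7, and 0.35 and 0.06 on day 12. MAOA, the oxidase that degrades noradrenaline and serotonin, fell by 1.18 on day 4 after 7.4 Gy (SE 0.35, limma adjusted p = 0.0453). The call was lost for 17 of the 24 arrays left out one at a time, control replicate 1 among them (-1.08, adjusted p = 0.130), and with array position as a covariate the difference was -0.49. On day 7 and day 12 MAOA differed by 0.13 to 0.66 from control with no call.

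Against the controls the enzymes of noradrenaline synthesis did not pass. TH, the rate-limiting enzyme, differed by -0.21 to 0.23. DBH, which turns dopamine into noradrenaline, differed by -0.87 (limma adjusted p = 0.129) on day 4 after 6.7 Gy and by -0.17 to 0.45 elsewhere. SLC6A2, the noradrenaline transporter of sympathetic nerve endings, differed by -0.35 to 0.54. The summed signal of TH, DBH and SLC6A2 was 1.77 to 2.15 units of the 75th percentile in the controls and 1.54 to 2.38 after TBI.

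Downstream of the receptor, GNAO1, the alpha subunit of the neuronal G protein Go, rose by 1.54 on day 4 after 7.4 Gy (SE 0.32, limma adjusted p = 0.00945). Without control replicate 1 it rose by 1.12. It was 1 of 7 tested G protein alpha subunits, whose median change was -0.03 to 0.27 over the comparisons. KCNJ3, a subunit of the potassium channels that Gi and Go open, fell by 1.26 (SE 0.26, limma adjusted p = 0.00917) in the same comparison and was 1 of 9 tested effectors, with medians of -0.30 to 0.02. With array position as a covariate neither passed, at 1.91 for GNAO1 (limma adjusted p = 0.122) and -1.06 for KCNJ3 (limma adjusted p = 0.273). None of the 7 adenylyl cyclases, 4 receptor kinases and arrestins or 14 RGS proteins was called. Nor was any of the 20 tested genes in the list of other amine and Gi-coupled receptors, PYY included. The medians of these lists, in the same order, lay between -0.36 and 0.05, -0.51 and 0.01, -0.11 and 0.17, and -0.24 and 0.17. Without control replicate 1, 1 adenylyl cyclase was called higher on day 4 after 6.7 Gy. In that fit 1 G protein alpha subunit was called lower on day 12 after 7.4 Gy.

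Markers of the cell types that the gut wall holds are set beside ADRA2A as measured. Enteric neurons carry the receptor, and their 5 tested markers had medians of 1.06 and 1.22 above control on day 4 (6.7 and 7.4 Gy), 0.29 and 0.62 on day 7, and 0.36 and 0.40 on day 12. 3 of the 5 were called on day 4 after 7.4 Gy (2.33% of all tested probes), all higher, among them ELAVL4 (1.22) and SNAP25 (1.62). Without control replicate 1 none of them was called (ELAVL4 0.76, SNAP25 1.1), the medians were 0.56 and 0.76 on day 4, and those of the later days were -0.17 and 0.16 on day 7 and -0.16 and -0.07 on day 12. The summed neuron signal was 0.518 to 2.80 in the controls, 2.17 to 4.59 and 2.87 to 4.03 on day 4, and 1.22 to 2.77 on the later days. Over both doses the ranges of day 4 and of the later days overlapped, and the relation of these sums to ADRA2A was not tested. The 9 tested enterochromaffin and enteroendocrine markers had medians of 0.07 to 0.52, with CHGB called on day 4 after 7.4 Gy (1.26, or 1.07 without control replicate 1). The 6 enterocyte markers had medians of -0.58 to 0.56, with VIL1 called lower on day 4 (-1.33 and -1.27).

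Of the pericyte and fibroblast markers (6 tested, medians up to 0.95), DCN and LUM rose on day 4 after 7.4 Gy, by 1.26 and 1.09, and VWF of the 5 endothelial markers rose by 1.12 there. Without control replicate 1 the calls of LUM (0.98) and VWF (0.85) were lost. The 3 smooth muscle markers had medians of 0.24 to 0.58 and no call, and without control replicate 1 their medians were -0.33 to 0.18, below 0 in 4 of the 6 comparisons. HBB, the beta chain of haemoglobin, was called lower in 5 comparisons, with changes of -6.11 and -5.88 on day 4, -6.86 and -7.57 on day 7 and -4.63 on day 12 after 6.7 Gy, and the summed signal of the 2 tested red cell markers was 2.09 to 7.25 in the controls and 0.315 to 1.51 after TBI. CD79B of the 3 tested B cell markers fell in 3 comparisons, by 1.25 to 1.34. TNFRSF17 of the 4 tested plasma cell markers fell by 2.97 on day 7 after 7.4 Gy. Without control replicate 1, MZB1 of the same list was called lower as well, on day 4 (-2.45, limma adjusted p = 0.0421) and day 7 (-2.86, limma adjusted p = 0.0418) after 7.4 Gy. The 5 T cell markers had medians of -0.86 to -0.28 with no call. CLCA1 of the 2 tested goblet cell markers was called lower on day 4 (-1.22 and -1.08, the second not called without control replicate 1), and CD14 of the 2 tested macrophage markers rose by 1.14 on day 4 after 7.4 Gy. Markers of enteric glia, mast cells, platelets and cycling cells gave no call. The part of these shifts in the ADRA2A level was not tested. Over the 24 arrays the Pearson correlation of ADRA2A with the median level of a marker list was 0.19 for enteric neurons, 0.28 for enterochromaffin and enteroendocrine cells, 0.14 for sympathetic axons, -0.48 for T cells and -0.49 for plasma cells, given as a description over arrays that share slides and controls.

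Among 14118 other symbols, each by its brightest tested probe, the pattern most like that of ADRA2A over the 24 arrays was that of SLC1A1, a glutamate and aspartate transporter of neurons and of the epithelial brush border (Pearson r = 0.76). PEBP1, a Raf kinase inhibitor protein, followed with 0.70, then LOC711362 with 0.68. PXMP4, FBXL12 and STOM had 0.67, HSD17B4, ATP6V0D2 and AGPAT3 had 0.66, and LOC703022 had 0.65. The median over all symbols was 0.02. These genes were above control in all 6 comparisons, SLC1A1 by 0.42 to 1.98 and PEBP1 by 0.15 to 1.12, and SLC1A1 was called in 1 of them. Within groups, where the difference between irradiated and unirradiated animals is removed, the correlation of SLC1A1 with ADRA2A was 0.46.

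The opposite pattern was most marked for MYO1F, a class I myosin of leukocytes (r = -0.80), CARD9, a signalling adaptor of myeloid cells (-0.74), SLA, an adaptor of lymphocyte receptors (-0.72), GFI1, a transcriptional repressor of blood cell development (-0.71), and P2RY10, a receptor of lymphocytes (-0.71). MYO1F was below control in all 6 comparisons, by -1.46 to -0.78. For deviations from the group means high correlations were those of ZADH2 (0.85), LOC715323 (0.83), CCDC174 (0.82) and EXOC8 (0.79), none of which was among the 10 highest over all arrays. Of the adrenergic genes, each by its brightest probe, ADRB3 reached 0.32, ADRA2B 0.31 and ADRA1A 0.21, while ADRBK1 had -0.23, ADRA1D -0.26 and ADRBK2 -0.42.

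**Figure D5:**
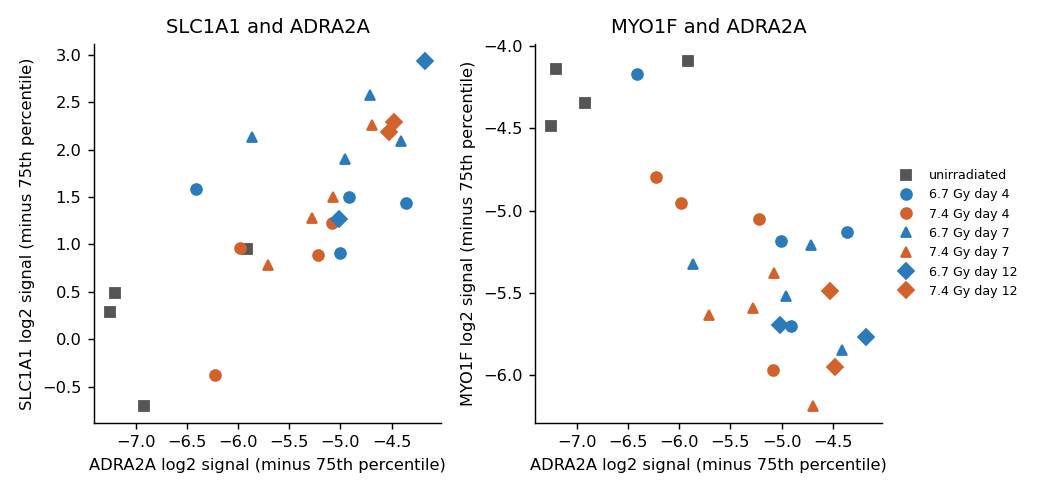
Log2 signal of SLC1A1 (left, y axis) and of MYO1F (right, y axis) against that of ADRA2A (x axis) on the 24 arrays, all minus the 75th percentile of the array, by group. SLC1A1 goes up with ADRA2A (r = 0.76) and MYO1F goes down (r = -0.80), and the 4 unirradiated arrays lie at the low end of the ADRA2A axis together with arrays of day 4.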

How the data were processed

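The authors hybridized Cy3-labelled RNA to rhesus macaque arrays of Agilent in 1 color and extracted the spots with Feature Extraction 11.0.1.1. Per the file headers the deposited scanner files hold background-subtracted intensities for each spot, with spot and background medians beside them as intensities. The authors' deposited table holds log2 values minus the 75th percentile of each array and then centred on the median of each probe, made with GeneSpring GX 11.0, and was used for gene symbols and as an alternative. The raw table of intensities equalled the scanner values within 1 in 100000 for 43553 of 43553 probes with 1 spot.

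From these intensities each value was taken as log2 signal minus the 75th percentile of the array. A probe was tested when every array of at least 1 group was well above background (36108 of 43603 probes). The fit used limma 3.58.1 in R 4.3.3 with 1 mean for each of 7 groups, the spread shared over 24 arrays, and Benjamini-Hochberg adjustment over all tested probes in each comparison. Calls required a change of 2-fold or more and an adjusted p under 0.05. A gene with several probes is named by its brightest probe, except that all probes are given for adrenergic receptors. Named were ADRA2A, all adrenergic receptor probes, members of the pathway lists called against the controls, TH, DBH, SLC6A2 and MAOA, and the 10 symbols most like and 5 least like ADRA2A over all arrays, with 5 for deviations from group means. Markers called in a list are named as well. Some genes that these rules name are not reported here, although counts and medians include them. The gene and all lists were chosen with earlier results of these data known. The number of animals limits the precision. With 1 array for each animal, the spread behind the p-values holds differences between animals and measurement error together.

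Alternatives were other scalings, normexp (offset 50) on the median spot signal since the files hold no mean signal, the deposited table, filters, outlier spots kept, slide, position or replicate number as blocks, other moderation, only the 2 groups compared, the methods' t-test and each array left out. Marker lists were also taken without control replicate 1, an alternative chosen after seeing the data. Same-numbered arrays of different groups deviated together little in the median (62 pairs, median r = 0.03, range -0.26 to 0.36). The median was -0.01 for other pairs. Replicate numbers were therefore not used as pairs in the main fit, though a median cannot exclude single pairs. Arrays of different groups on the same slide had a median r of 0.07, against -0.02 on other slides.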

Additional observations from a re-analysis of the deposited data

Results flagged for a closer look

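2 of the 65 sets of 4 arrays examined (5 groups by 13 tested adrenergic probes) held an array far from the others, while chance alone gives about 1 in 20. The dimmer ADRA1D probe was higher in replicate 3 of 7.4 Gy on day 7, at -5.12 against -5.33 for the nearest array, a gap of 0.99 of the whole range, which is narrow. ADRA2B was higher in replicate 2 of 7.4 Gy on day 4, at -4.55 against -5.19, a gap of 0.848 of the range. No group held such an array for ADRA2A.

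Effects on different days were compared directly, since they share the controls. ADRBK2 fell by 1.42 from day 4 to day 12 at 7.4 Gy, a call lost under 3 of 13 alternatives (down to -0.51 with normexp) and without either day 12 array. In the lists, DBH differed by 1.32 between day 12 and day 4 at 6.7 Gy, GNA11 by 1.07 and GNAZ by -1.80 between day 12 and day 4 at 7.4 Gy, and PRKAR2B by -1.11 in the same comparison. KCNJ3 differed by 1.03 between day 7 and day 4 and by 1.29 between day 12 and day 4, both at 7.4 Gy. MAOA differed by 1.32 between day 7 and day 4 at 7.4 Gy, and PDE4B by -1.21 and -1.12 on days 7 and 12 against day 4 at 6.7 Gy. Each passed the limma test at an adjusted p between 0.0151 and 0.049. ADRA2A passed none of these tests.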

How the results depend on the processing

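ADRA2A stayed above control in all 6 comparisons under every setting run. With normexp, whose offset of 50 exceeds most of its intensities, the changes fell to 0.44 and 0.15 on day 4, 0.48 and 0.52 on day 7, and 0.59 and 0.63 on day 12 (6.7 and 7.4 Gy). On day 4 the change at 6.7 Gy was 0.87 within slides, and at 7.4 Gy it was 2.27 with position as a covariate. Raising signals below background to the lowest signal above it, a setting chosen after seeing the data, gave 1.39 and 0.88 on day 4. The number of comparisons in which ADRA2A was called was 1, but 6 with the methods' t-test unadjusted, 5 with quantile normalization, 3 with slide as a block, 2 with median scaling or intensity trend, and 0 with normexp, with no filter, in fits of only 2 groups or with the adjusted t-test. Leaving out single arrays gave 0 to 6, with 0 without control replicates 2, 3 or 4 or without 6.7 Gy day 4 replicates 1 or 3, 3 without control replicate 1 and 6 without 6.7 Gy day 4 replicate 4. With the replicate block the day 12 changes were 2.02 and 2.11, and it changed no other call of ADRA2A.

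No difference between doses or days was called for ADRA2A under any setting. The sign between doses turned on day 4 with position as a covariate (0.081), on day 7 with normexp (0.038) and on day 12 with slide as a block (-0.57). With single arrays left out, the dose difference on day 12 ranged from -0.33 to 0.52, day 7 minus day 4 at 6.7 Gy from -0.22 to 0.48 and day 12 minus day 7 at 6.7 Gy from -0.035 to 0.81.

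The other receptor probes gave 2 calls with quantile normalization and 0 with normexp, no filter, slide as a block, fits of 2 groups or the adjusted t-test, and 0 to 1 with single arrays left out. The list genes gave 6 calls with median scaling, intensity trend, probes above background on all arrays or the unadjusted t-test, 5 with quantile normalization or slide as a block, 1 with fits of 2 groups or the adjusted t-test, and 2 to 6 with single arrays left out. Probes above background on all arrays leave out ADRA2A, position could not be fitted for days 7 and 12 against control or day 4, and no other ADRA2A probe existed to try.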
